A study of Mus musculus with 4 samples.

Results

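Core histones and their variants were followed in the testis of Adad2-knockout mice through every entry of the deposited expression table whose symbol begins with Hist1h, Hist2h, Hist3h, Hist4h, H2af or H3f. The rule took 76 of the 26068 entries that name a gene, and it uses no measured value. Of these, 26 had a mean over the 4 libraries of at least 0 on the log2 RPKM scale (RPKM divides a gene's reads by its length and by the depth of the library), which is 1 RPKM, and were tested, while 50 lay below. RNA came from whole testes of male B6D2F1 mice, a hybrid strain, aged 24 days, with 2 libraries of wild type and 2 from mice homozygous for the Adad2 knockout. Library depth, estimated from the value of a single read, was 29400000 to 36900000 reads. Nothing in the labels ties the libraries to separate animals, so the p-values measure only how these libraries vary, and that variation may be technical. The sources used here do not give the kind of allele, the part of the gene it removes or the number of mice per library. Values are given in the order of the replicate numbers.

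Histones are the proteins around which DNA is wound: H2A, H2B, H3 and H4 form the core of the nucleosome, and H1 binds the DNA between nucleosomes. Most core histone genes lie in clusters, are transcribed while DNA replicates, and end their messages in a short stem-loop, bound by the protein SLBP, in place of a poly(A) tail. Replacement variants such as H3.3, H2A.Z and macroH2A come from separate genes whose messages carry tails. In the male germ line, testis variants of H2A, H2B and H1 take the place of part of their somatic counterparts. In elongating spermatids most histones then give way to transition proteins and after them to protamines. The labels name a TruSeq RNA kit and do not state whether RNA with tails was selected. A level below is therefore that of a gene in these libraries, and how well messages without a tail were captured was not tested.

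The targeted gene and the cell type markers were checked first. Adad2 stood at 4.66 and 4.47 log2 RPKM in the wild type libraries and at 3.73 and 3.30 in the knockout libraries, 2.07-fold lower (limma adjusted p = 0.00604), and missed the threshold of 0.05 without wild type replicate 1 (adjusted p = 0.143) or 2 (0.0838). All 8 markers of meiotic spermatocytes and 7 of 8 of Sertoli cells passed the level for testing. Of the spermatocyte markers 1 was called, Pgk2, 1.53-fold lower (limma adjusted p = 0.0216). None of the 7 tested Sertoli and 7 tested spermatogonial markers was called, and all had changes above 0, with medians of 0.27 and 0.25. Of 8 elongating spermatid markers 7 were called lower in the knockout, beside 7.15% of all genes tested. The summed level of the 8 was 806 to 839 RPKM in wild type and 43.7 to 78.3 RPKM in the knockout. Of 8 round spermatid markers 6 were called lower, and their sum went from between 284 and 326 RPKM to between 93.2 and 122 RPKM. None of these spermatid markers was without reads in all 4 libraries. In whole-testis RNA, fewer cells of a type and less RNA per cell cannot be told apart, and the part that these markers play in the histone results was not tested.

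Of the 26 tested histone genes, 4 were lower and 3 higher in the knockout, and 19 were not called, at a limma adjusted p under 0.05 over all 13414 genes tested. Over all genes tested, 7.15% were lower and 1.22% higher, or 8.36% in either direction. The lower genes were the spermatid variant H2afb1 and the core genes Hist1h4a, Hist1h3a and Hist1h2bp, and the higher genes were Hist2h2ab, Hist2h2ac and Hist1h4h. None of the 8 replacement variants was called. The median log2 change of the 26 was 0.13, and that of all genes tested was 0.14. In 8 of the 26 both knockout libraries lay below both wild type libraries and in 11 both lay above, while such separation held for 16.8% and 46.4% of all genes tested, or 63.2% in either direction. After quantile normalization 7 members were lower and 3 higher. Without wild type replicate 1 limma called 0 genes of the whole table, with 2357 genes and 12 of the 26 members at an unadjusted p under 0.05. Without wild type replicate 2 it called 3 members lower and 0 higher.

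**Figure D1:**
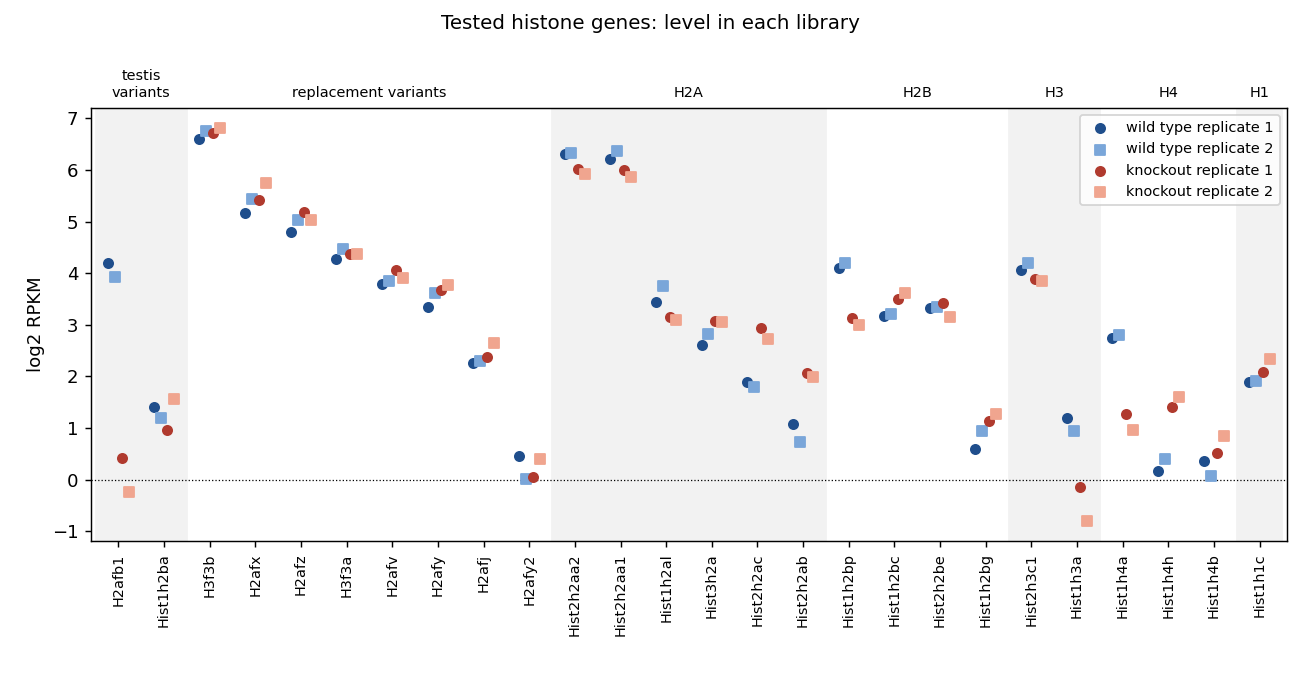
Level of each of the 26 tested histone genes in log2 RPKM (vertical axis), one point per library, with genes grouped by class and ordered by mean; the dotted line marks 1 RPKM. The knockout points of H2afb1, Hist1h4a and Hist1h3a sit far below the wild type points, while those of the replacement variants lie close to them.

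H2afb1 showed the largest difference among the tested members. The table's identifier for it, ENSMUSG00000062651, is named H2al2a in Gencode M21, and RefSeq lists H2afb1 also as an older name of a gene on the X chromosome. H2al2a encodes H2A.L.2, an H2A variant of condensing spermatids known to act with the transition proteins. It lies on the minus strand of chromosome 2 from 17918049 to 17918573 in mm9, with a single annotated exon. Its level was 18.4 and 15.3 RPKM in wild type replicates 1 and 2 and 1.33 and 0.841 RPKM in knockout replicates 1 and 2. The groups were far apart, and the knockout libraries still held transcript. In estimated reads these values are 292, 296, 23 and 13, so the knockout values rest on few reads. On the log2 scale the means were 4.07 ± 0.19 and 0.08 ± 0.47 (SD, n = 2 each), a change of -3.99 (SE 0.23, 95% confidence interval -4.56 to -3.42), or 15.9-fold lower (limma adjusted p = 0.000352). Without wild type replicate 1, which leaves a single wild type library, the change was -3.85 and the adjusted p 0.0535. Of the 50-base windows of its transcript, 5.5% also occur unchanged in another annotated gene. Copies that differ by a base were not searched, so sharing of reads with them was not tested.

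The promoter of H2afb1 is shown because its gene changed most among the tested members. The window is the RefSeq one in GRCm38.p6, chr2:17996909-17997208, minus strand, from 250 bases before the start of the gene to 50 after it. Motifs searched were TATAAA on the gene's strand, and CCAAT, TGACGTCA and ATTTGCAT on both strands. These are the TATA box, the site of NF-Y, the full cyclic AMP response element and the octamer of histone H2B promoters, and none of the 4 contains another. Capitals would mark a match, and this window holds none of them:
H2afb1: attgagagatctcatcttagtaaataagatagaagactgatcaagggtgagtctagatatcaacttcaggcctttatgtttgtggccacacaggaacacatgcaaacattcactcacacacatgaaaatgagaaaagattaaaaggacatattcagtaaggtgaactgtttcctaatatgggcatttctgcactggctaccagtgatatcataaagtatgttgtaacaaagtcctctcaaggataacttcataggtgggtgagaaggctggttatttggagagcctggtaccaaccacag
A promoter window was found for 68 of the 76 members. CCAAT was in 57 of the 68 and in 38.19% of the 21262 windows of protein-coding genes. TATAAA was in 31 of 68 against 8.26%, ATTTGCAT in 14 of 68 against 1.66%, and TGACGTCA in 4 of 68 against 2.23%. Neighbours on opposite strands can have overlapping windows, such as Hist1h2ag and Hist1h2bj. Motifs searched on both strands can then count the same site for both members. A match is a string of letters in this window and does not show that a factor binds there.

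The other testis variants were low in these libraries, and H2afb1 was the 1 called of the 2 tested. Hist1h2ba, which encodes the testis H2B known as TH2B, was at 2.64 and 2.30 RPKM in wild type and 1.95 and 2.97 RPKM in the knockout. The groups overlapped, with a log2 change of -0.03 (95% confidence interval -0.54 to 0.48, limma adjusted p = 0.923). Hist1h2aa, the testis H2A that lies 305 bases from Hist1h2ba on the other strand, was at 0.678, 0.903, 1.32 and 0.610 RPKM in the same order. It was below the level for testing, with 8, 13, 17 and 7 estimated reads, and its groups overlapped. Hist1h1t, the linker histone H1t of spermatocytes and round spermatids, stood at 1.2 and 0.924 RPKM in wild type and 0.534 and 0.448 RPKM in the knockout. Both knockout libraries were below both wild type libraries, with 33, 31, 16 and 12 estimated reads, and the gene was not tested because its mean fell under 1 RPKM. With the filter removed, the 7 members called were the same 7, so H1t was not called there either.

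H2afb1 fell together with genes that package spermatid DNA outside the symbol rule. H1fnt, a linker histone of spermatids, was 12.3-fold lower (log2 change -3.62, limma adjusted p = 0.00357). Hils1, another spermatid linker histone, was 3.83-fold lower (adjusted p = 0.000156). Of 19 listed histone genes outside the rule, 7 were in the table and 5 tested. H1fnt and Hils1 were the 2 called, beside 7.15% of all genes tested that were lower. The median over the 5 was -0.53, and Cenpa, the centromeric H3, was not called (0.09, limma adjusted p = 0.65). Of the 5 protamine and transition protein genes 4 were called lower, beside 7.15% of all genes tested. Prm1, Prm2, Prm3 and Tnp1 had log2 changes of -5.29, -5.35, -1.82 and -5.03, with limma adjusted p of 0.00272 to 0.0313, and Tnp2 had -5.39 with an adjusted p of 0.0761. Without wild type replicate 1 none of these was called, but neither was any gene of the whole table, so that fit does not single them out.

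**Figure D2:**
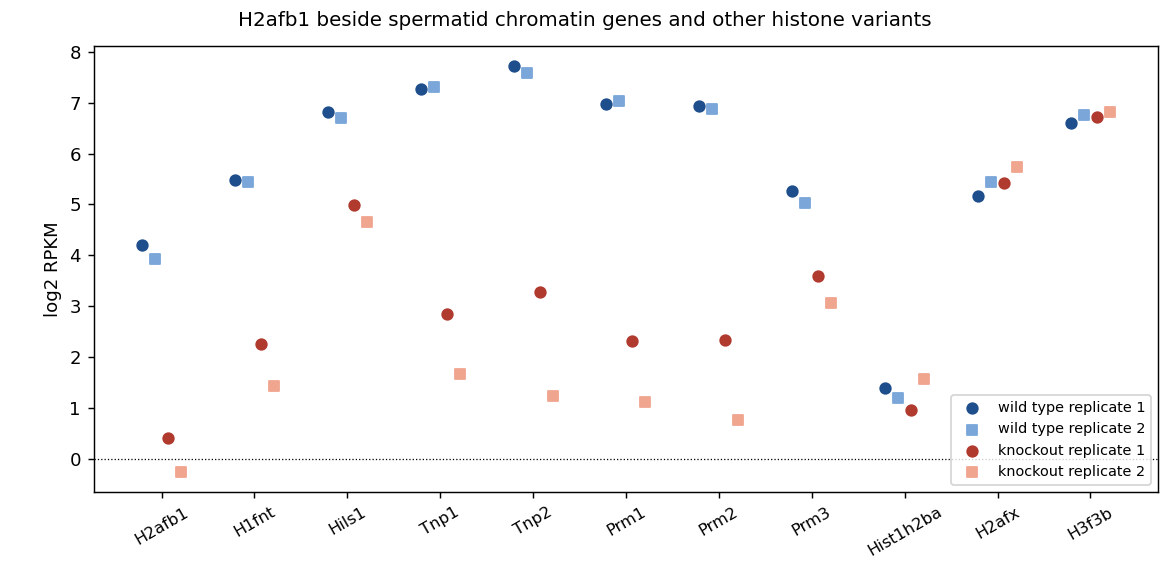
Level in log2 RPKM (vertical axis) of H2afb1, of spermatid chromatin genes and of 3 other histone variants, one point per library. H2afb1 and the spermatid genes are lower in both knockout libraries, whereas Hist1h2ba, H2afx and H3f3b overlap between the groups; knockout replicate 2 is the lower one for each spermatid gene shown.

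The replacement variants, which any cell type can express, held 42.2% and 44.6% of the summed RPKM of all 76 members in wild type and 50.2% and 53.3% in the knockout. Of 8 tested, 0 were called, beside 8.36% of all genes tested, and the median change of the 8 was 0.18. H3f3b, one of the genes for H3.3, was the most abundant member at 96.7 and 108 RPKM in wild type and 105 and 113 RPKM in the knockout. Its groups overlapped (log2 change 0.09, 95% confidence interval -0.17 to 0.36). H3f3a, the other H3.3 gene, was at 19.5 and 22.1 RPKM against 20.7 and 20.6, with an interval of -0.25 to 0.24. Over 6916 bases it overlaps the antisense gene Gm17275, at 4.54 and 4.71 against 4.64 and 4.65 log2 RPKM, so reads of that stretch cannot be assigned without strand, and 44.4% of its 50-base windows occur in other genes. H2afx encodes H2A.X, whose phosphorylated form marks DNA breaks and the silenced sex chromosomes of spermatocytes. It was at 36.0 and 43.5 RPKM against 43.0 and 53.4, and the groups overlapped (-0.06 to 0.61).

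No gene of H2A.Z or macroH2A was called. H2afz was at 27.9 and 32.6 RPKM in wild type and 36.4 and 32.6 in the knockout, and the second H2A.Z gene, H2afv, at 13.8 and 14.4 against 16.7 and 15.1 RPKM. The intervals of their log2 changes were -0.09 to 0.47 and -0.07 to 0.41. H2afy, for macroH2A1, was at 10.2 and 12.3 RPKM against 12.8 and 13.7, and H2afy2, for macroH2A2, at 1.37 and 1.01 against 1.04 and 1.31 RPKM. Both knockout libraries of H2afy, H2afv and H2afj, another H2A variant, were above both wild type libraries, as in 46.4% of all genes tested. The log2 change of H2afj was 0.23 (-0.06 to 0.53). The widest interval of the class was that of H2afy2, -0.56 to 0.53, so changes in either direction within that interval are compatible with its values. By mean level the order was H3f3b, H2afx, H2afz, H3f3a, H2afv, H2afy, H2afj and H2afy2. H2afx and H2afz were the neighbours in that order whose ranges over the 4 libraries overlapped.

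**Figure D3:**
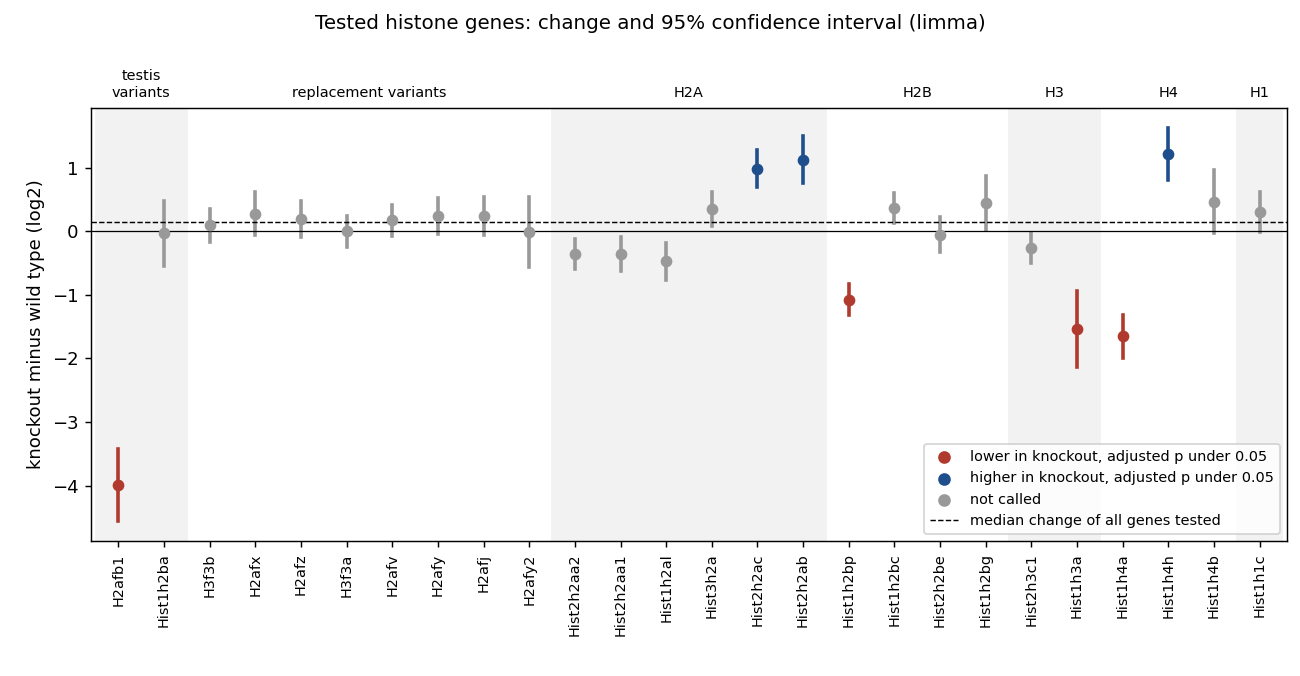
Difference between knockout and wild type in log2 (vertical axis) for each tested histone gene, with 95% confidence intervals from limma; the dashed line is the median of all genes tested, 0.14. The 4 called decreases and 3 called increases stand clear of 0, and the intervals of the 8 replacement variants all include it.

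The core H4 genes moved in both directions. Hist1h4a was at 6.69 and 6.99 RPKM in wild type and 2.42 and 1.95 RPKM in the knockout, from 109, 139, 43 and 31 estimated reads. Both knockout libraries were far below the wild type ones. The log2 change was -1.65 (SE 0.15, 95% confidence interval -1.99 to -1.32), or 3.14-fold lower (limma adjusted p = 0.000393; 0.0655 without wild type replicate 1). Hist1h4h was at 1.13 and 1.33 RPKM in wild type and 2.65 and 3.03 RPKM in the knockout, from 16, 23, 41 and 42 reads. Here both knockout libraries were the higher ones. The log2 change was 1.21 (SE 0.18, interval 0.80 to 1.62), or 2.32-fold higher (adjusted p = 0.00388; 0.104 without wild type replicate 1 and 0.0606 without wild type replicate 2). The remaining tested H4 gene, Hist1h4b, had a log2 change of 0.46 (adjusted p = 0.201). It lies whole within the antisense gene 4930558J22Rik, so its reads cannot be assigned without strand.

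The promoters of Hist1h4a and Hist1h4h are set side by side because the genes encode the same protein and moved in opposite directions. Both windows are from RefSeq in GRCm38.p6, chr13:23761200-23761499 on the minus strand for Hist1h4a and chr13:23530794-23531093 on the plus strand for Hist1h4h. Capitals mark matches to TATAAA on the gene's strand, and to CCAAT (or ATTGG) and TGACGTCA on both strands:
Hist1h4a: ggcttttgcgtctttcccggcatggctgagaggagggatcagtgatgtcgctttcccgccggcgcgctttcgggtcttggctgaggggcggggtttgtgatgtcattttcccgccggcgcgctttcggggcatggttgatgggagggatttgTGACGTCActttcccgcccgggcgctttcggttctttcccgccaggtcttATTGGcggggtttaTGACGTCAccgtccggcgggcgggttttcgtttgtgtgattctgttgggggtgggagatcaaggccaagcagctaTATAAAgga
Hist1h4h: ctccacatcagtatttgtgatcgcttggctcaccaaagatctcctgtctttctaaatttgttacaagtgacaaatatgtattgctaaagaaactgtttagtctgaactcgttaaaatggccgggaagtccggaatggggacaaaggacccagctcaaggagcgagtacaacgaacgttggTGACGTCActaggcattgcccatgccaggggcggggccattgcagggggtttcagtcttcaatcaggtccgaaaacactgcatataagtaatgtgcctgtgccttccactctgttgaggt
The TATAAA in the Hist1h4a window begins 41 bases after the annotated start, not before it. TGACGTCA occurs at 2 places in the Hist1h4a window and at 1 place in the Hist1h4h window, 70 bases before its start. The 2 of 47 untested members that hold it, Hist1h2ag and Hist1h2bj, have overlapping windows with the same site. Of 21 tested members with a window, Hist1h4a and Hist1h4h were the 2 that hold it. The shared letters thus stand in 1 promoter of a gene that fell and 1 of a gene that rose.

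The 3' stem-loop was looked up in the Gencode M21 transcripts of all 76 members, 64 matched by identifier and 12 by symbol, as GG, any 2 bases, CTT, any base, T, any base, AG, any 2 bases and CC, on the transcript's strand. It was found in 46 members, against 0.54% of the 21878 other protein-coding genes. The whole transcript was searched, not its end alone. After the match the annotated transcript ran on for 3 bases in Hist1h2ap and for 4884 in Hist1h1d. In the called members it ran on for 37 (Hist1h3a) to 108 bases (Hist1h4a). Of the 26 tested members 13 had it, and of the 50 untested 33. Among the 8 replacement variants it was found in H2afx. It was in 5 of the 7 called members and not in the annotated transcripts of H2afb1 or Hist2h2ab. The Hist2h2ab entry spans 393 bases. A transcript annotated without its 3' end cannot show the stem-loop, and how many absences come from this was not tested. The forms found are shown because they are the processing signal that sets core histone messages apart. The whole 16 bases are the motif and stand in capitals:
Hist1h4a: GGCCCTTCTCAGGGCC
Hist1h4h: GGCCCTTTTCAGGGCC
Hist2h2ac: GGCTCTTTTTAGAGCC
Hist1h3a: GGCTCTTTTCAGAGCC
Hist1h2bp: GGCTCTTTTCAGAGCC
The form of Hist1h3a and Hist1h2bp was the commonest, in 25 members of which 8 were tested. The forms of Hist1h4a and Hist2h2ac each occurred in 1 member.

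Hist1h3a, a core H3 gene, lies 622 bases from Hist1h4a on the same strand of chromosome 13, and both fell. Its level was 2.29 and 1.93 RPKM in wild type and 0.909 and 0.572 RPKM in the knockout, from 37, 38, 16 and 9 reads. Both knockout values were under 1 RPKM, so its mean reached the level for testing only through the wild type libraries. The groups did not overlap, and the knockout libraries differed between themselves. Of its 50-base windows 49.5% also occur in other genes, so part of its reads may come from relatives. The log2 change was -1.54 (SE 0.26, interval -2.14 to -0.95), or 2.91-fold lower (limma adjusted p = 0.00758). The call was lost without wild type replicate 1 (adjusted p = 0.212) and without wild type replicate 2 (0.132). The other tested H3 gene, Hist2h3c1, was at 16.7 and 18.4 RPKM against 14.9 and 14.3 (adjusted p = 0.159). Gencode M21 gives its identifier as Gm20634, a processed transcript, so the entry is not a clean measure of an H3 gene. It overlaps Hist2h2aa1 over 562 bases on the same strand, so reads of that stretch could be counted for either gene.

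Hist1h2bp, which had the highest level of the H2B genes in wild type but not in the knockout, fell. It was at 17.1 and 18.3 RPKM in wild type and 8.72 and 8.03 RPKM in the knockout, from 365, 477, 203 and 167 reads. Both knockout libraries were near each other and below the wild type ones. The log2 change was -1.08 (SE 0.10, interval -1.32 to -0.84), or 2.11-fold lower (limma adjusted p = 0.000593; 0.0552 without wild type replicate 1). Of the 50-base windows of its transcripts 55.3% also occur in other genes, most often Hist1h2br, so part of its reads may come from relatives. Hist1h2br and Hist1h2bq, relatives under the level for testing, also had both knockout libraries below both wild type libraries. The other tested H2B genes were Hist1h2bc, Hist2h2be and Hist1h2bg, with log2 changes of 0.37, -0.06 and 0.44 and adjusted p of 0.0681, 0.757 and 0.172. Hist2h2be shared no window with another gene.

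The core H2A genes called were both higher in the knockout and lie in a cluster on chromosome 3. Hist2h2ac was at 3.69 and 3.49 RPKM in wild type and 7.64 and 6.60 RPKM in the knockout, from 58, 67, 131 and 101 reads. Hist2h2ab was at 2.10 and 1.65 RPKM in wild type and 4.17 and 3.97 RPKM in the knockout, from 25, 24, 54 and 46 reads. For both genes the knockout libraries were the higher ones. The changes were 0.98 (SE 0.13, interval 0.69 to 1.27) for Hist2h2ac, 1.98-fold higher (limma adjusted p = 0.00211), and 1.13 (SE 0.16, interval 0.75 to 1.5) for Hist2h2ab, 2.18-fold higher (adjusted p = 0.00368). Without wild type replicate 1 the adjusted p was 0.0799 and 0.0679, and without wild type replicate 2 it was 0.0712 and 0.0705.

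Hist2h2ab and Hist2h2ac end 52 bases apart on opposite strands in mm9. All 393 bases of Hist2h2ab lie inside the antisense gene Gm15444, which was 1.99-fold higher (limma adjusted p = 0.003). The sources used here do not say whether strand was used in counting, so reads of Hist2h2ab and Gm15444 cannot be told apart. Hist2h2ac has no such overlap with another entry, although 55% of its 50-base windows occur in other genes, most often Hist2h2aa1 (Hist2h2aa2 in Gencode M21). Its start lies 240 bases from that of Hist2h2be, which is transcribed the other way. Hist2h2be was at 10.01 and 10.2 RPKM in wild type and 10.7 and 8.87 RPKM in the knockout, with overlapping groups, and the difference between its change and that of Hist2h2ac was not tested. The window of Hist2h2ac, chr3:96220831-96221130 on the minus strand in GRCm38.p6, therefore spans the stretch between the genes and is shown for that reason. Capitals mark TATAAA on its own strand, and CCAAT (or ATTGG) and ATTTGCAT (or ATGCAAAT) on either strand:
Hist2h2ac: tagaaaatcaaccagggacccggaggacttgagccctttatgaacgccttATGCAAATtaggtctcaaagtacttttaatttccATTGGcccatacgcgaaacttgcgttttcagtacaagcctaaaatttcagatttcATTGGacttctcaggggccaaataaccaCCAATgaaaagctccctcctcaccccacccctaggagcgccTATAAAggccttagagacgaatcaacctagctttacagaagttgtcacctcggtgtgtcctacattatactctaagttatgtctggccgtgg
It holds 3 CCAAT matches, 1 octamer and a TATAAA that begins 42 bases before the start of Hist2h2ac.

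The most abundant core histone entries were the H2A copies Hist2h2aa1 and Hist2h2aa2 in the same cluster. Hist2h2aa2 was at 79.8 and 80.5 RPKM in wild type and 64.5 and 60.7 RPKM in the knockout, and Hist2h2aa1 at 74.5 and 82.8 against 64.3 and 58.5 RPKM. Gencode M21 gives the 2 identifiers these names the other way round. Every 50-base window of either transcript also occurs in another gene, so the values may be 1 signal divided over copies. Their log2 changes were both -0.36, with adjusted p of 0.0832 and 0.104, and both passed the threshold after quantile normalization (0.0163 and 0.0113). Hist1h2al, at 10.8 and 13.5 against 8.91 and 8.53 RPKM, is annotated as a processed pseudogene in Gencode M21. It shares 67.6% of its windows, most often with Hist2h2aa1 (Hist2h2aa2 in Gencode M21). Its log2 change was -0.47 with an adjusted p of 0.0612, and it passed the threshold, among other settings, after quantile normalization (0.0421) and without knockout replicate 1 (0.012) or 2 (0.0435). Hist3h2a had a change of 0.35 (adjusted p = 0.114). All 1990 bases of it lie within Trim17 on the same strand, and Trim17 was 2.73-fold lower (limma adjusted p = 0.000167).

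Of the 5 linker histone genes in the H1 class, which leaves out H1t, Hist1h1c was the 1 tested, at 3.73 and 3.78 RPKM in wild type and 4.22 and 5.07 RPKM in the knockout. Both knockout libraries were higher, with a log2 change of 0.30 (interval -0.01 to 0.61, limma adjusted p = 0.198). Of its windows 8.5% were shared with other genes. Hist1h1a, Hist1h1b, Hist1h1d and Hist1h1e, which encode other somatic H1 proteins, had means below 1 RPKM. H1fx, a somatic H1 gene whose symbol lies outside the rule, was higher than any of them, at 5.09 and 5.37 log2 RPKM in wild type and 5.25 and 5.32 in the knockout, and was not called (limma adjusted p = 0.769).

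**Figure D4:**
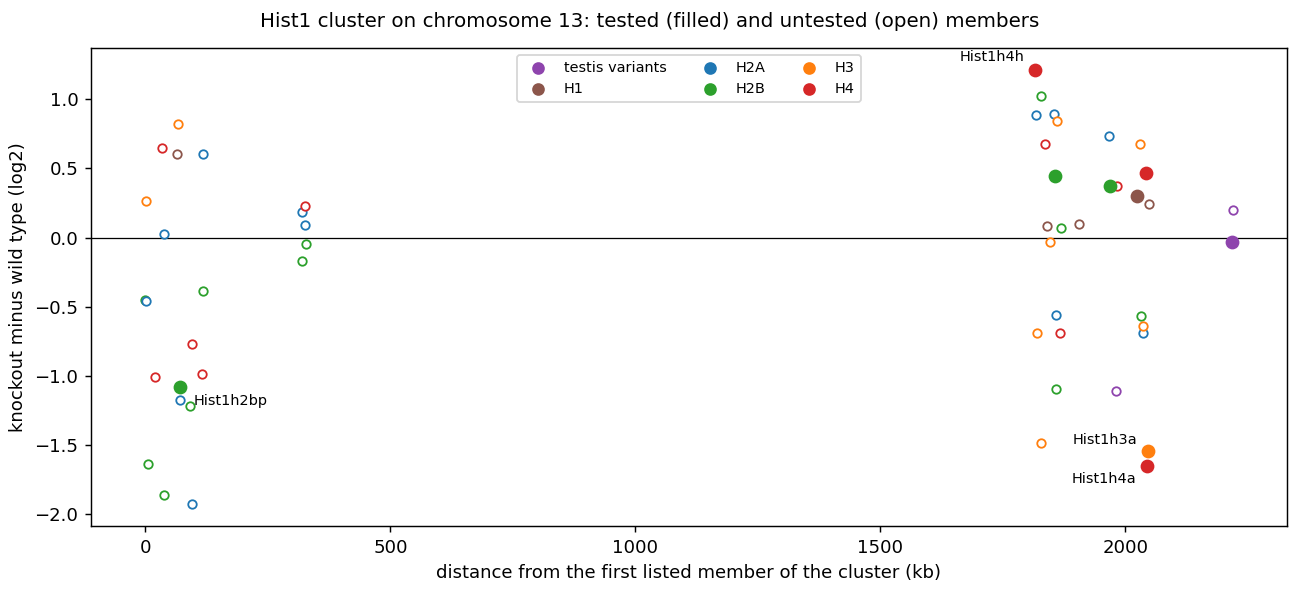
Difference between knockout and wild type in log2 (vertical axis) for the 54 histone genes of the Hist1 cluster on chromosome 13, by distance in kb from the first of them; filled points are the 9 tested genes, open points the untested ones. Hist1h3a and Hist1h4a, which fell, lie between Hist1h4b and Hist1h1a, whose points are above 0, and the open points scatter on both sides of 0.

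By position, the Hist1 cluster ran over 2219 kb of chromosome 13 and held 54 members, of which 9 were tested, 3 called lower and 1 higher. The Hist2 cluster ran over 59.1 kb of chromosome 3 and held 9 members, of which 6 were tested, 0 called lower and 2 higher. Of all genes tested 7.15% were lower and 1.22% higher, and the difference between the clusters was not tested. Entries that can share reads, such as Hist2h2aa1 and Hist2h2aa2, are counted here as separate members. Beside the Hist1h4a and Hist1h3a pair, Hist1h4b, 3264 bases from Hist1h4a, had the change of 0.46 given above. On the other side Hist1h1a, 1281 bases from Hist1h3a, had 15 and 10 reads in wild type and 14 and 13 in the knockout, with overlapping groups, and was not tested.

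Most core histone genes gave few reads. Whole reads could be recovered for 47 of the 50 untested members, and these held 0 to 33 reads in any library. The median over members of their mean was 4 reads. In 32 of the 47 every library had under 10 reads, and in 17 at least 1 library had 0. Together the 50 made up 3.16% to 4.02% of the summed RPKM of all members. Both knockout libraries were below both wild type libraries in 12 of the 50 and above in 5, beside 13.7% and 17.3% of all untested genes. No test was made of these, and differences between libraries of a few reads were not detectable at this depth. At the edge of the filter, Hist1h4c (mean -0.03 log2 RPKM) and Hist1h2bk (-0.06) lay just outside, and H2afy2 (0.23) and Hist1h3a (0.30) just inside.

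**Figure D5:**
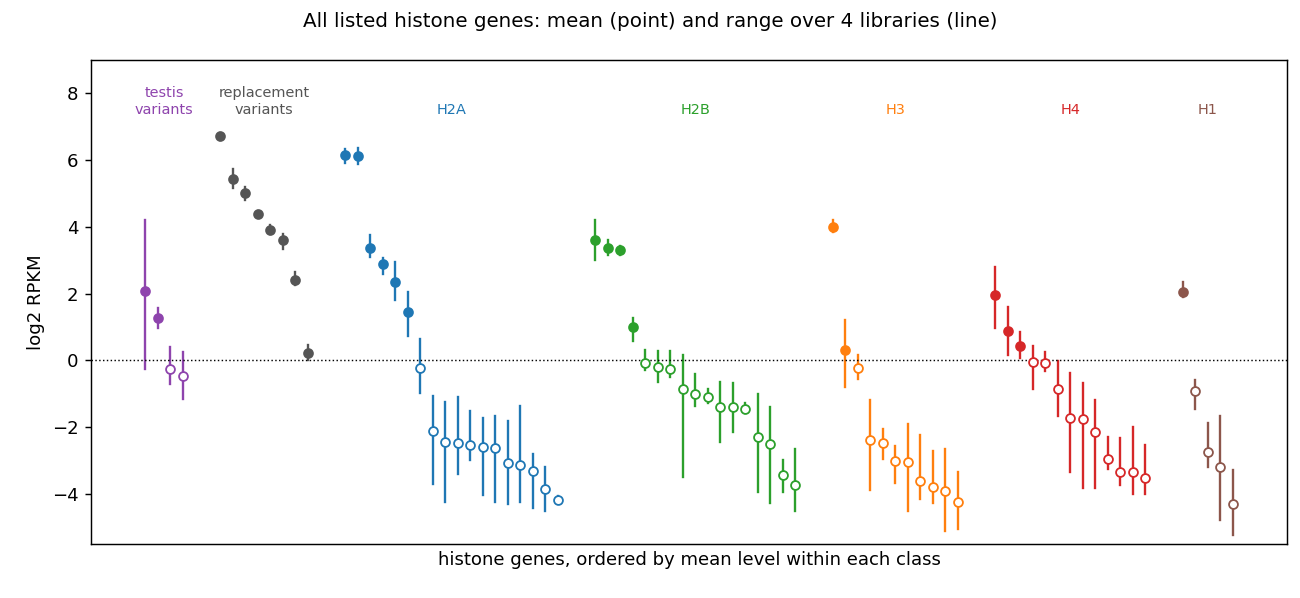
Mean level (points) and range over the 4 libraries (lines) in log2 RPKM for all 76 histone genes, ordered by mean within each class; filled points were tested and open points were not. The replacement variants lie above the dotted line at 1 RPKM, while 12 of 18 H2A, 13 of 17 H2B, 9 of 11 H3, 10 of 13 H4 and 4 of 5 H1 genes lie below it.

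Summed over members, H2A genes gave 180 and 191 RPKM in wild type and 162 and 148 RPKM in the knockout, and H2B genes 45.2 and 46.6 against 39.0 and 36.5 RPKM. H3 genes gave 20.8 and 22.3 against 17.5 and 17.1 RPKM, and H4 genes 13.3 and 13 against 11 and 10.8 RPKM. In each of these classes both knockout sums were below both wild type sums. For H2A, H2B and H4 this rested on 1 or 2 members. The members left out here were singled out after their values were seen. Without Hist1h4a the H4 sum was 6.60 and 6.02 RPKM in wild type and 8.58 and 8.89 RPKM in the knockout, and without Hist1h2bp the H2B sum was 28.1 and 28.3 against 30.3 and 28.4 RPKM. Without Hist2h2aa1 and Hist2h2aa2 the H2A sum was 26.1 and 28.2 against 32.9 and 29.1 RPKM. In each of these both knockout sums were then above both wild type sums. The H3 sum, most of which is the Hist2h3c1 entry, was 4.06 and 3.85 against 2.61 and 2.77 RPKM without it, and kept its direction. Of that remainder Hist1h3a held 2.29 and 1.93 against 0.909 and 0.572 RPKM, and the sum without both entries was not taken. The H1 sum went the other way, at 4.88 and 4.35 against 5.06 and 6.28 RPKM, and the testis variants, led by H2afb1, gave 22.9 and 19.4 against 5.14 and 4.87 RPKM. Sums of genes that share reads do not count messages of separate genes.

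Among genes that process histone messages, handle histone proteins or replicate DNA, 4 were higher and 0 lower, beside 1.22% and 7.15% of all genes tested. Of 19 tested genes for histone transcription and message processing 1 was higher, 0 lower, with a median change of 0.18. This was Zfp473, a zinc finger protein of the processing complex, 2.01-fold higher (limma adjusted p = 0.0174). Both wild type libraries had it below the filter of 0, with log2 values of -0.32 and -0.44. Zfp473 thus entered the test only because of its knockout values, 0.69 and 0.57. Slbp itself had a change of 0.18 and Npat, the transcription regulator of histone clusters, 0.19, with adjusted p of 0.275 and 0.266. Of 34 tested histone chaperones 2 were higher and 0 lower, with a median of 0.20. Anp32b, of an acidic chaperone family, was 1.43-fold higher (adjusted p = 0.0172) and Hjurp, the chaperone of the centromeric H3, 1.32-fold higher (adjusted p = 0.0472). Of 21 tested DNA replication genes 1 was higher and 0 lower, with a median of 0.22. This was Rrm1, a subunit of ribonucleotide reductase, 1.41-fold higher (adjusted p = 0.0411). The median change over all genes, 0.14, is the measure for these medians. None of these 4 genes was called without the filter on low values. The same held without either wild type library, but without replicate 1 no gene of the whole table was called.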

How the data were processed

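RNA was sequenced from 4 whole-testis samples with the TruSeq kit named in the labels' protocols. Per the submitters' processing notes, Bowtie2, bcl2fastq 2.17.1.14 and mm9 were used. For the counting tool, annotation, strand use and treatment of reads with several matches, which matter for histone genes, the entry is: not given in the sources used here. The authors deposited log2 RPKM values for 26127 entries, and the 59 (0.23%) that lack a gene name were dropped. Numbered columns were assigned by the group and number in the titles, and the authors' mean columns equalled their means. Mitochondrial genes and single-exon genes showed that genes without reads carry 0.9 of a read. From that step, 64 members gave whole reads (within 0.02) by the gene span and 6 by the exon length of Gencode M21. Coordinates are mm9, as in the table, except promoter windows.

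The test, for genes with a mean of at least 0, was that of limma 3.58.1 (R 4.3.3) with statmod 1.5.0, using trend and robust estimation. The fit was unpaired and the test two-sided, with no pseudocount; p-values were adjusted by Benjamini-Hochberg over the 13414 genes, at a threshold of 0.05. With 2 libraries a group, the spread is mostly the one pooled over genes. The code was tested on simulated data. Named were all members called, all testis and replacement variants, the 3 most abundant and the most changed tested genes of each class, and called genes of the lists; untested members, Slbp, Npat, Cenpa, Tnp2 and overlapping genes were added after their values were seen. The members and lists were chosen with earlier results of these data known. Promoters (RefSeq, GRCm38.p6) and Gencode M21 transcripts, cut into 50-base windows to measure shared sequence, were matched by identifier, symbol or synonym. Alternatives were other filters, log2(RPKM + 1), quantile normalization, equal medians, plain limma, a replicate block, other thresholds and each library left out in turn.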

Additional observations from a re-analysis of the deposited data

How the results depend on the processing

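Of the 7 called histone genes, all 7 kept their direction and call with no filter, with log2(RPKM + 1), after quantile normalization, with equal library medians, without trend and robust estimation, with the replicate block, and without either knockout library. The stricter filter, at a mean of 2, kept 3 of them in the test and called 3 members lower and 1 higher. Histone genes called lower numbered 7 after quantile normalization and 0 to 5 when 1 library was left out, and those called higher 0 to 4 when 1 library was left out. Over the whole table, 959 genes were lower and 163 higher. The counts lower were 637 with the stricter filter and 624 at an adjusted p under 0.01, and 0 to 1308 with 1 library left out. The counts higher were 97 with no filter, 245 after quantile normalization, 42 and 542 at thresholds of 0.01 and 0.1, and 0 to 494 with 1 library left out. In these fits 1 group has a lone sample, taken to vary like the other group's. The change of Adad2 was then -1.26 to -0.84. Changes near 0 turned sign in such fits: they ran from -0.34 to 0.27 for Hist1h2ba, -0.10 to 0.087 for H3f3a, -0.23 to 0.21 for H2afy2 and -0.19 to 0.077 for Hist2h2be, none of them called. The cause of these shifts was not tested.

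The labels give both groups replicates 1 and 2 without saying what a number shares. Deviations of same-numbered libraries correlated at 0.33 across genes, which with 2 pairs does not show a pairing. With the replicate block 1477 genes were lower and 1837 higher, and 5 histone genes were lower and 6 higher, the added ones being Hist1h2al, Hist3h2a, Hist1h2bc and Hist1h2bg. Among the lists, the block called 1 protamine or transition protein gene lower in place of 4, 8 chaperones higher in place of 2, and 3 DNA replication genes higher in place of 1 and 1 lower in place of 0. Few reads limit the 50 untested members. Over 50% of windows were shared with other genes in 9 of the 26 tested members.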
